A study of Danio rerio with 24 samples.

Results

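The cytosolic ribosome is built from ribosomal RNA and a fixed set of proteins, and the genes for those proteins were followed here through 24 RNA-seq libraries of zebrafish embryos. They were chosen by name alone: rows of the deposited table whose symbol starts with rpl or rps followed by a number, plus rplp0, rplp1, rplp2, rplp2l and rpsa, leaving out the S6 kinases (rps6k), rps19bp and rps27l. The rule found 83 of 32521 rows. By their symbols, 34 were counted with the small (40S) subunit and 49 with the large (60S) subunit, 4 of these in the P-stalk. Whether each product, such as that of rpl7l1, is part of the finished ribosome was not checked. The 83 rows carry 81 distinct symbols, because rpl9 and rpl37 each have 2 identifiers. Rows whose symbols the table writes in capitals, such as RPL37A, are not taken by the rule.

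Ribosomal proteins are made in near-equal amounts, since each sits once in most ribosomes, apart from the P1 and P2 proteins, which bind the stalk as pairs. Their mRNAs are among the most abundant of a growing cell and begin with a run of pyrimidines (the 5′ TOP motif) through which mTOR signalling controls their translation together. A fish egg carries a large maternal store of both ribosomes and ribosomal protein mRNAs, and the embryo's own genome takes over after the mid-blastula transition.

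RfxCas13d (Cas13d) uses a guide RNA to find and cleave a chosen mRNA, and the series asked how well it lowers such mRNAs in animal embryos. Embryos were injected at the 1-cell stage and collected at 6 h after injection, with 2 biological replicates in each of 12 groups. How many embryos went into a library is not given in the sources used here. The first set of 6 groups used transgenic embryos with maternally provided RFP: Cas13d mRNA (200 to 250 pg per embryo) with guides against nanog (500 to 600 pg), the same with guides against rfp, the same with guides against dnd plus a reporter, Cas13d mRNA with the reporter alone, Cas13d mRNA alone, and uninjected embryos. The reporter is gfp mRNA (40 pg) with the nanos 3′ UTR. All 6 groups carried the transgene. The second set, whose labels name no transgene, held Cas13d protein (3 ng) with the reporter and dnd1 guides, Cas13d protein labelled as with the reporter, Cas13d protein with szrd1 guides, Cas13d protein alone, Cas13d mRNA with szrd1 guides, and Cas13d mRNA alone. The protein dose of replicate 2 with dnd1 guides is unclear in its label. Set, fish line and batch cannot be told apart.

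Several libraries stood apart in genes other than those of the ribosome. The targeted mRNA was left at 11.7% to 19.8% of its control mean in the 6 guide comparisons. TPM stands for transcripts per 1000000 transcripts. In the libraries whose label gives protein plus reporter, nanos3, whose 3′ UTR the reporter carries, was at 21.3 and 20.7 TPM, near the 16.6 and 17.25 TPM of Cas13d protein alone and far below the 1432 and 1646 TPM of the reporter group of the first set. The dnd1-guide libraries of the second set held 121 and 160 TPM of nanos3 and 18.5 and 27.12 TPM of RFP, against at most 0.18 TPM of RFP in the other 10 libraries of that set. The 2 libraries of Cas13d protein alone had a summed level of 116 and 104 TPM over 17 oocyte maternal transcripts, against 625 and 606 TPM with Cas13d mRNA in the same set. Among the 17 is nanog, which alone held 7.25 to 1003 TPM per library. For 17 genes of later gastrula and segmentation stages the sums were 978 and 1004 TPM with Cas13d protein, against 266 and 253 TPM with Cas13d mRNA. All 17 oocyte genes were above 0 in every library, while foxg1a was listed at 0 in both Cas13d protein libraries, and foxg1a, hoxa1a, hoxb2a and pax6a in both of Cas13d mRNA. In replicate 1 with nanog guides, 5 repeat-like loci took up 23.2% of TPM, and in replicate 2 they took up 1.62%. TPM carries no depth, so the read number behind each value is unknown.

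No ribosomal protein gene was at 0 in any library. The mean over the 24 libraries was at least 100 TPM for 80 genes and at least 1000 TPM for 42, with a median of 1011 TPM. TPM is per transcript length, so levels can be set beside each other between genes, but only roughly. The annotation and the division of reads shared between near-identical copies are not known. The most abundant was rpl39, a very small protein of the peptide exit tunnel, with a mean of 3079 TPM (2074 to 5544 over libraries). It was followed by rpl23a, which sits at the mouth of the exit tunnel (1863 TPM), the small-subunit gene rps8a (1852 TPM), rpl29 (1806 TPM) and rpl32 (1740 TPM). Together the 10 most abundant genes held 22.1% of the TPM of all 83.

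At the other end stood 3 genes under 20 TPM: rps8b (1.02 TPM), the second rpl9 row (ENSDARG00000054799, 10.8 TPM) and the second rpl37 row (ENSDARG00000076360, 11.1 TPM). Each has an abundant namesake or sister gene, rps8a at 1852 TPM, rpl9 (ENSDARG00000037350) at 874 TPM and rpl37 (ENSDARG00000034291) at 881 TPM, and the way reads shared between near-identical copies were divided is not known, so the low values are uncertain. Next came rpl35a (117 TPM), rpl22l1 (170 TPM), rps26l (187 TPM) and rps3 (196 TPM), the last a protein of the mRNA entry channel. The rank order of the 83 genes was similar between libraries, with Spearman coefficients across these genes of at least 0.901 within the first set and 0.884 within the second, and as low as 0.751 between sets. Genes are not independent replicates, so these coefficients describe the libraries and carry no test.

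**Figure D1:**
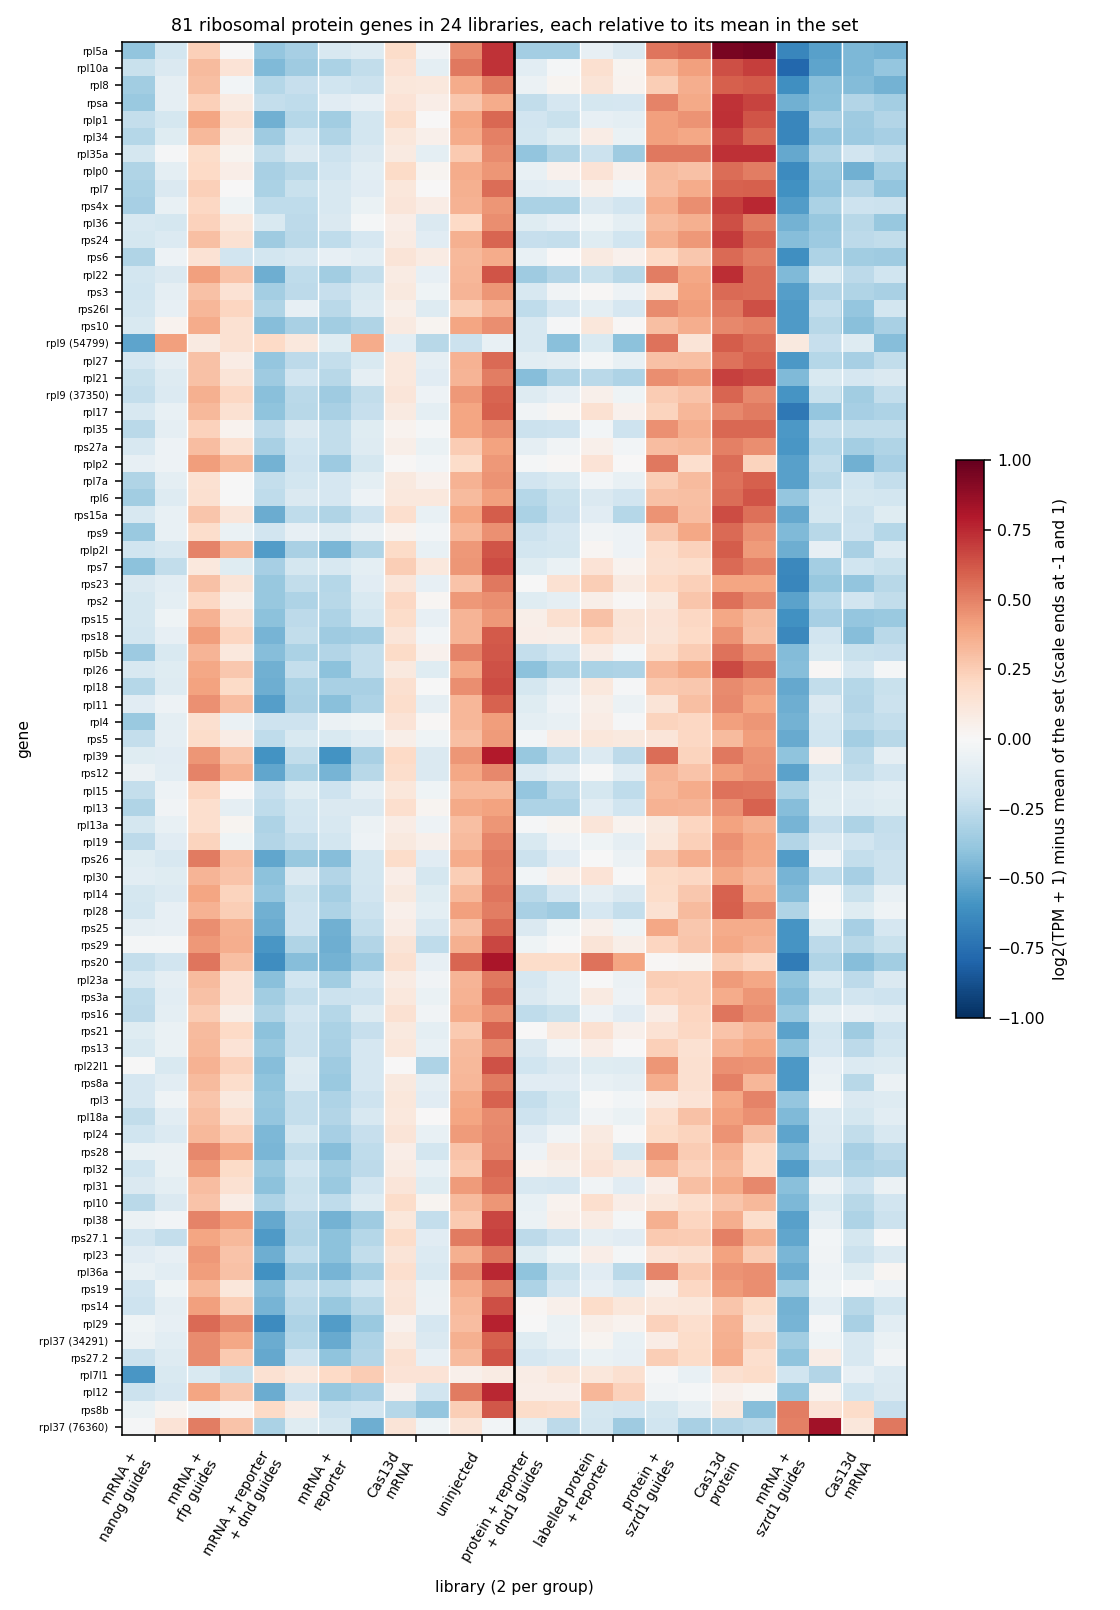
Each row is one of 81 ribosomal protein genes and each column a library, and colour gives log2(TPM + 1) minus the gene's mean over the 12 libraries of its set (the black line divides the sets, and the scale ends at -1 and 1). Most rows are red in the uninjected and Cas13d protein libraries and blue in the libraries of Cas13d mRNA with reporter or szrd1 guides. Many rows are also red with rfp guides and with protein and szrd1 guides, and blue with Cas13d mRNA alone of the second set. Rows such as rpl7l1 and, in the second set, rpl12 depart from that course.

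The 83 genes together held between 5.90% and 12.04% of all TPM of a library. In the first set the share was 7.16% and 7.63% with nanog guides, 10.4% and 9.23% with rfp guides, 6.17% and 6.95% with dnd guides and reporter, 6.56% and 7.12% with the reporter, 8.90% and 7.83% with Cas13d mRNA alone, and 10.5% and 12.04% in uninjected embryos. In the second set it was 7.55% and 7.85% with protein, reporter and dnd1 guides, 8.55% and 8.08% in the libraries labelled protein with reporter, 9.98% and 9.997% with protein and szrd1 guides, 11.6% and 11.2% with protein alone, 5.90% and 7.36% with Cas13d mRNA and szrd1 guides, and 6.94% and 7.24% with Cas13d mRNA alone. Uninjected embryos and Cas13d protein alone were thus the 2 groups with the highest shares. Each had both libraries above every library of the other groups of its set. Replicate 1 with rfp guides came close to the lower uninjected library. With mitochondrial transcripts and the 5 repeat-like loci left out of the total, that rfp library held 12.4%, above the 11.7% of uninjected replicate 1. In whole embryos, fewer cells of a type and less RNA per cell cannot be told apart, and a share of TPM also falls when other transcripts rise.

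**Figure D2:**
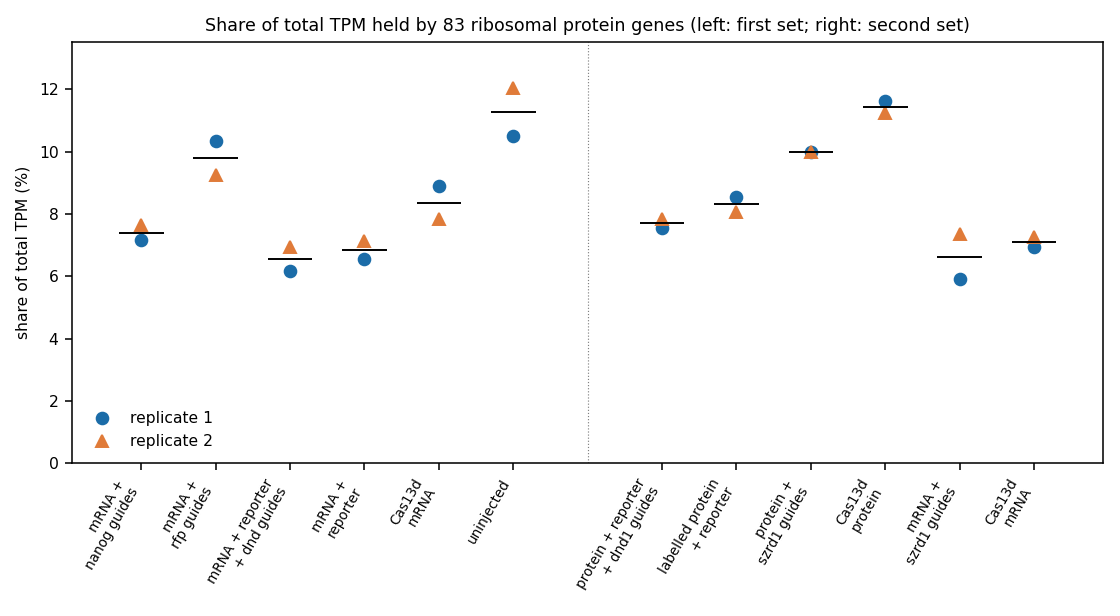
The vertical axis gives the percentage of a library's total TPM held by the 83 ribosomal protein genes, with circles and triangles for replicates 1 and 2 and a bar at the mean of each group (first set left, second set right of the dotted line). The highest means are 11.3% in uninjected embryos and 11.4% with Cas13d protein alone, and the lowest are 6.56% with dnd guides and reporter and 6.63% with Cas13d mRNA and szrd1 guides.

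The balance between the subunits stayed in a narrow range, though groups differed beyond the spread of their replicates. The ratio of small to large averaged 0.730 ± 0.00045 with Cas13d protein and 0.780 ± 0.0019 with protein, reporter and dnd1 guides (SD, n = 2 each). Small-subunit genes held 0.730 to 0.781 times the TPM of large-subunit genes over the 24 libraries. Over the 10 comparisons, the median log2 fold changes of the subunits lay furthest apart in the libraries labelled protein with reporter against Cas13d protein, at -0.43 for small-subunit and -0.52 for large-subunit genes. They had the same sign in every comparison.

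Cas13d mRNA alone was compared with uninjected embryos. No group was injected without Cas13d, so injection, the added mRNA and the nuclease cannot be told apart in this comparison. Ribosomal protein genes were lower after injection in nearly every case: of 82 tested (rps8b was below the minimum mean of 1 TPM in this set), 79 had both injected libraries below both uninjected ones, against 17.6% of all genes tested, and rpl7l1 alone had both above, against 37.7%. The median log2 fold change (of TPM + 1, as throughout) was -0.42, against 0.093 over all 15253 genes tested. The core protein rpsa, also known as the laminin receptor precursor, measured 995 and 948 TPM with Cas13d mRNA, against 1092 and 1170 TPM in uninjected embryos. For rps20, a protein of the small-subunit head, the values were 2006 and 1693 TPM, against 2685 and 3154 TPM. The stalk-base gene rpl12 had 1193 and 1015 TPM, against 1659 and 1952 TPM, the largest difference of the comparison at -0.71 (SE 0.15, adjusted p 0.19). In all 3 genes the injected libraries lay below the uninjected ones without overlap.

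None of these differences passed the test: at an adjusted p under 0.05 (limma, Benjamini-Hochberg over all genes tested), 0 of 82 members were called, against 0.00656% of all genes. An unadjusted p under 0.05 was reached by 70 of the 82 members and by 2044 of all 15253 genes. The share of TPM was 8.36% ± 0.761 with Cas13d mRNA and 11.3% ± 1.09 in uninjected embryos (SD, n = 2 each), a ratio of 0.742. Within each of these groups the replicates differed by a median of 0.18 on the log2 scale over the members, replicate 1 being higher with Cas13d mRNA and lower in uninjected embryos. The oocyte list summed to 1187 and 1004 TPM with Cas13d mRNA, against 952 and 1007 TPM in uninjected embryos, and its 17 genes gave 0 calls. The genes of later gastrula and segmentation stages summed to 134 and 130 TPM with Cas13d mRNA, against 156 and 140 TPM. Of these, 5 were tested and 0 called. The part of these lists in the result was not tested.

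Addition of the reporter was tested against Cas13d mRNA alone. Both libraries with the reporter lay below both without it for 77 of 82 members, against 17.4% of all genes, and rpl7l1 was the 1 member with both above, against 43.3%. The median was -0.28, while the median of all genes was 0.13. The stalk protein rplp1 had 917 and 1028 TPM with the reporter, against 1325 and 1166 TPM without it. For rpl39 the values were 2109 and 2549 TPM, against 3666 and 2893 TPM, a log2 fold change of -0.49 (SE 0.18, adjusted p 0.19). The members called numbered 0, against 1.03% of all genes. An unadjusted p under 0.05 was reached by 24 of the 82 members and by 2671 of all 15253 genes. The oocyte list summed to 1518 and 1695 TPM with the reporter, against 1187 and 1004 TPM. Of its 17 genes, 2 were called higher, against 0.754% of all genes. Within the sums nanog held 592 and 623 TPM, against 324 and 253 TPM. The later genes summed to 115 and 115 TPM, against 134 and 130 TPM, with 5 tested and 0 called. The part of these lists in the result was not tested.

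With dnd guides on top of the reporter, differences of the ribosomal protein genes were small. Both guide libraries were below both reporter libraries for 23 of 82 members, against 18.1% of all genes, and above for 0, against 20.5%. The median was -0.062, close to the -0.0038 of all genes, and the shares of TPM overlapped. The 5S-particle gene rpl5a had 221 and 229 TPM with dnd guides, against 258 and 263 TPM with the reporter, without overlap and with the lowest fold change of the comparison (-0.21, adjusted p 1). The test called 0 members, against 0.0262% of all genes. An unadjusted p under 0.05 was reached by 0 members and by 474 of all 15253 genes. The oocyte list summed to 2077 and 2210 TPM with dnd guides, against 1518 and 1695 TPM with the reporter. Within these sums nanog held 1003 and 988 TPM, against 592 and 623 TPM, and 0 of the 17 genes were called. For the later genes the sums were 99.2 and 97.6 TPM, against 115 and 115 TPM, with 5 tested and 0 called. The part of these lists in the result was not tested.

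Guides against nanog, a transcription factor that helps to activate the zygotic genome, came with ribosomal protein mRNAs that were slightly lower in TPM. Of 82 members, 50 had both guide libraries below both of Cas13d mRNA alone, against 22.2% of all genes, and 0 had both above, against 19.5%. The test called 0 higher and 1 lower, against 7.74% of all genes called and 4.24% called lower. The gene was rps7, a small-subunit protein that in human cells can also bind MDM2, with 1144 and 1278 TPM with nanog guides, against 1800 and 1632 TPM with Cas13d mRNA. Both guide libraries were well below the control, and rps7 fell by 0.50 on the log2 scale (SE 0.14, adjusted p 0.0474). Close behind was rpl7l1, a paralog of rpl7, with 217 and 292 TPM, against 357 and 357 TPM (-0.50, adjusted p 0.057). The guide replicates of rpl7l1 differed more from each other than the control replicates did.

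The sign of the members' median in this comparison differed between scalings. It was -0.16, with -0.048 over all genes, and -0.11 with median-of-ratios scaling, where all genes had -0.0042. When the 13 genes above 10000 TPM, none of them a ribosomal protein gene, were left out of the total it was 0.048, still below the 0.13 of all genes. After quantile normalization it was 0.070, above the -0.0093 of all genes. Relative to all genes, then, the members were lower by 0.086 to 0.11 under the first 3 scalings, and higher by 0.079 only after quantile normalization. With mitochondrial transcripts and the 5 repeat-like loci removed, the members held 10.5% and 8.53% of the remaining TPM with nanog guides, against 9.87% and 8.60% with Cas13d mRNA, and the groups overlapped. Under each of the 3 other scalings, 1 member was called lower, and it was not rps7, while 19.6% to 23.7% of all genes were called. With libraries left out 1 at a time, the median log2 fold change of the members lay between -0.26 and -0.069. The call of rps7 did not hold in every such fit. The oocyte list summed to 1128 and 1490 TPM with nanog guides, against 1187 and 1004 TPM. Of its 17 genes, 9 were called higher, against 3.49% of all genes, and 1, nanog itself, was called lower. Since nanog had 33.55 and 44.52 TPM with guides, against 323.8 and 253.2 TPM, the sums also carry the loss of the target. The later genes summed to 139.5 and 204.5 TPM, against 134 and 130 TPM. Of these, 5 were tested, with 0 called higher and 1 lower, against 3.49% and 4.24% of all genes. The part of these lists in the result was not tested.

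Guides against rfp, which has no counterpart among the embryo's own genes, went the other way. Both guide libraries lay above both of Cas13d mRNA for 50 of 82 members, against 30.3% of all genes, and 1 member, rpl7l1, lay below, against 39.2%. The median was 0.21, against -0.049 over all genes. The test called 3 higher and 0 lower, against 13.8% of all genes called and 5.69% called higher. Among them, the large-subunit gene rpl29 had 2789 and 2608 TPM, against 1942 and 1674 TPM (0.58, SE 0.17, adjusted p 0.0412). For rps28, which lies near the mRNA exit, the values were 1963 and 1834 TPM, against 1469 and 1239 TPM (0.49, SE 0.14, adjusted p 0.0416). In both genes the lowest guide library was above the highest control library.

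Mitochondrial transcripts took 14.3% and 13.1% of TPM in the libraries with rfp guides, against 8.84% and 7.06% with Cas13d mRNA. The oocyte list summed to 1995 and 2240 TPM, against 1187 and 1004 TPM. Of its 17 genes, 12 were called higher, against 5.69% of all genes. Within the sums nanog held 598.5 and 715 TPM, against 324 and 253 TPM. The later genes summed to 113 and 96.9 TPM, against 134 and 130 TPM. Of these, 5 were tested, with 0 called higher and 2 lower, against 5.69% and 8.06% of all genes. The part of these lists in the result was not tested. The count of 3 was 32 when genes above 10000 TPM were left out of the total, where 30.6% of all genes were called. After quantile normalization it was 26, where 32.2% of all genes were called. With libraries left out 1 at a time, the median log2 fold change of the members lay between 0.13 and 0.32. The 3 calls did not hold in every such fit. The comparisons with nanog guides, rfp guides and the reporter share the same 2 control libraries, which are also the injected libraries set against uninjected embryos.

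**Figure D3:**
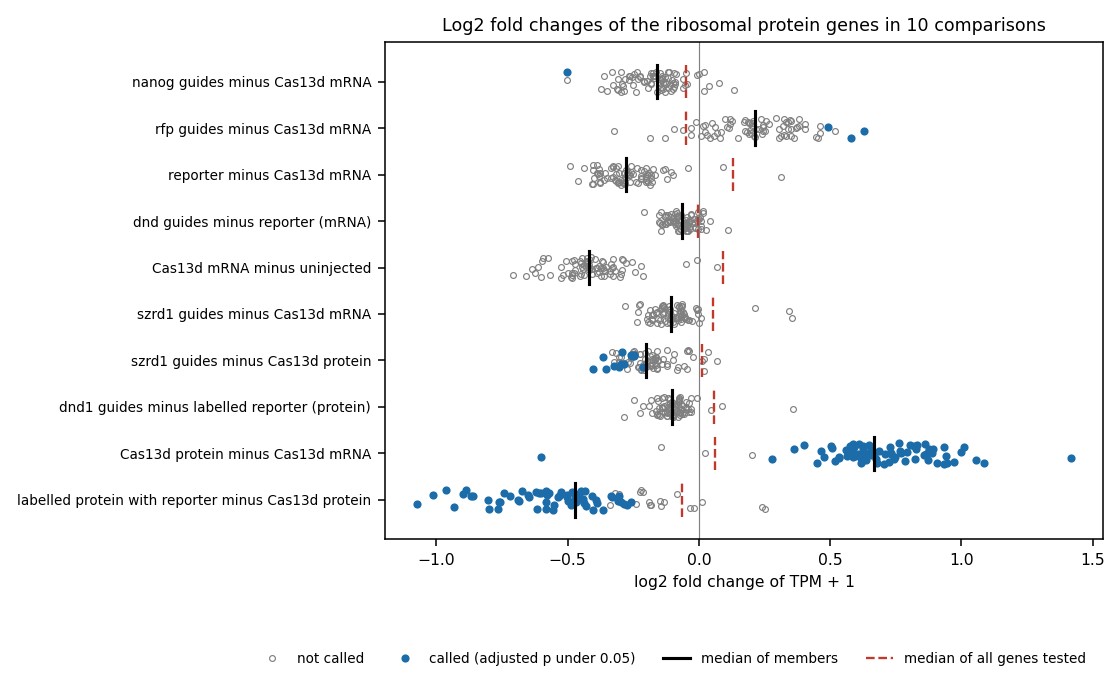
Each row is a comparison and each point 1 ribosomal protein gene, placed by its log2 fold change of TPM + 1 (filled points passed an adjusted p of 0.05), with a black bar at the median of these genes and a dashed red bar at the median of all genes tested. Most points are filled only in the 2 lowest rows, where 80 and 64 of 83 genes were called, and 13 are filled for szrd1 guides with protein.

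The largest difference was between Cas13d protein and Cas13d mRNA, both without guides, in the second set. Ribosomal protein mRNAs were higher with protein almost without exception. Of 83 members, 80 had both protein libraries above both mRNA libraries, against 42.4% of all genes, and 1 had both below, against 35.4%. The test called 79 higher and 1 lower, or 96.4% of the members, where 56.3% of all genes were called, 30.8% higher and 25.5% lower. The median log2 fold change was 0.67, against 0.062 over all genes, and the share of TPM was 11.4% ± 0.271 with protein and 7.09% ± 0.217 with mRNA (SD, n = 2 each), a ratio of 1.61. A log2 fold change of at least 1 in size was reached by 4 called members, while 21.9% of all genes were called with such a change.

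The foremost of these was rpl5a. Its product, with that of rpl11 and the 5S rRNA, forms the particle that also binds Mdm2 and so links ribosome assembly to p53. It had 888 and 896 TPM with Cas13d protein, against 336 and 332 TPM with Cas13d mRNA, a rise of 1.42 (SE 0.055, adjusted p 1.53e-07). Its sister gene rpl5b had 1534 and 1445 TPM, against 904 and 896 TPM (0.73, adjusted p 7.7e-05). For rpl11 the values were 1710 and 1619 TPM, against 1005 and 1061 TPM (0.69, adjusted p 4.2e-04). All 3 genes were higher without overlap, rpl5a by the most.

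The next were rpl10a, the protein of the L1 stalk that helps the spent tRNA leave, with 1246 and 1287 TPM, against 582 and 610 TPM (1.09, SE 0.087, adjusted p 6.89e-06), and rpl8, which binds near the peptidyl transferase centre, with 1261 and 1276 TPM, against 619 and 601 TPM (1.06, SE 0.075, adjusted p 3.29e-06). The fourth was rpsa, with 1961 and 1903 TPM, against 974 and 942 TPM (1.01, adjusted p 9.7e-07). Replicates of these genes lay close together, and the groups stood far apart. The 1 member that fell was the low-level rpl37 row (ENSDARG00000076360), with 9.57 and 9.76 TPM, against 13.0 and 17.65 TPM (-0.60, SE 0.17, adjusted p 0.0117). Among the 3 not called were rps8b (-0.14) and rpl12 (0.20, adjusted p 0.14).

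These 2 protein libraries are the ones with the low oocyte and high later-gene sums given above, and the part of that difference in the result was not tested. All 15 oocyte genes tested were called lower with protein (median -1.88) and all 9 later genes tested were called higher (median 2.52). Other protein libraries of the set gave smaller values in comparisons chosen after seeing the data. The libraries labelled protein with reporter against the same Cas13d mRNA libraries gave 28 members higher and 1 lower (12.4% of all genes called, median 0.24). Of all genes 6.58% were called higher and 5.86% lower. Here rps20 stood at 0.85 (adjusted p 0.00315), rpl5a at 0.34 (adjusted p 0.007) and rpsa at 0.14 (adjusted p 0.142). Protein with szrd1 guides against mRNA with szrd1 guides gave 78 higher and 1 lower (51.2% of all genes called, 26.8% higher and 24.4% lower, median 0.60), with rpl5a at 1.15 and rpsa at 0.89 (adjusted p 6.2e-07 and 3.4e-06).

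The libraries labelled Cas13d protein with reporter, set against Cas13d protein alone, had ribosomal protein mRNAs at a lower level. Both lay below for 78 of 83 members, against 44.5% of all genes, and above for 2, against 36.8%. The test called 64 lower and 0 higher, where 50.6% of all genes were called and 27.9% called lower, with a median of -0.47, against -0.062 over all genes. A log2 fold change of at least 1 in size was reached by 2 of them, while 17.6% of all genes were called with such a change. The genes that fell most were rpl5a, with 433 and 415 TPM, against 888 and 896 TPM (-1.07, SE 0.055, adjusted p 8.3e-07), rpl35a, with 104.5 and 94.3 TPM, against 201 and 201 TPM (-1.01, SE 0.083, adjusted p 1.04e-05), and rpl21, with 800.2 and 778 TPM, against 1549 and 1528 TPM (-0.96, SE 0.085, adjusted p 1.61e-05). Human RPL35A is among the genes mutated in Diamond-Blackfan anaemia. In each of these 3 genes the labelled libraries lay far below those of Cas13d protein. The oocyte list summed to 383 and 417 TPM in the labelled libraries, against 116 and 104 TPM, and the later genes to 322 and 319 TPM, against 978 and 1004 TPM, and their part in the result was not tested.

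Not all genes took part. The 2 members with both libraries above were rpl12, with 2254 and 2093 TPM, against 1841 and 1809 TPM (0.25, adjusted p 0.083), and rps20, with 2037 and 1839 TPM, against 1659 and 1618 TPM (0.24, adjusted p 0.091). For rpl7l1 the values were 392.4 and 404 TPM, against 404 and 411 TPM, nearly equal (-0.03). The same 2 protein libraries serve as control here and as the group compared above, so the opposite signs of the 2 comparisons are not separate findings. Since the reporter content of the labelled libraries is in doubt, what distinguishes them from Cas13d protein alone cannot be told from the labels.

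**Figure D4:**
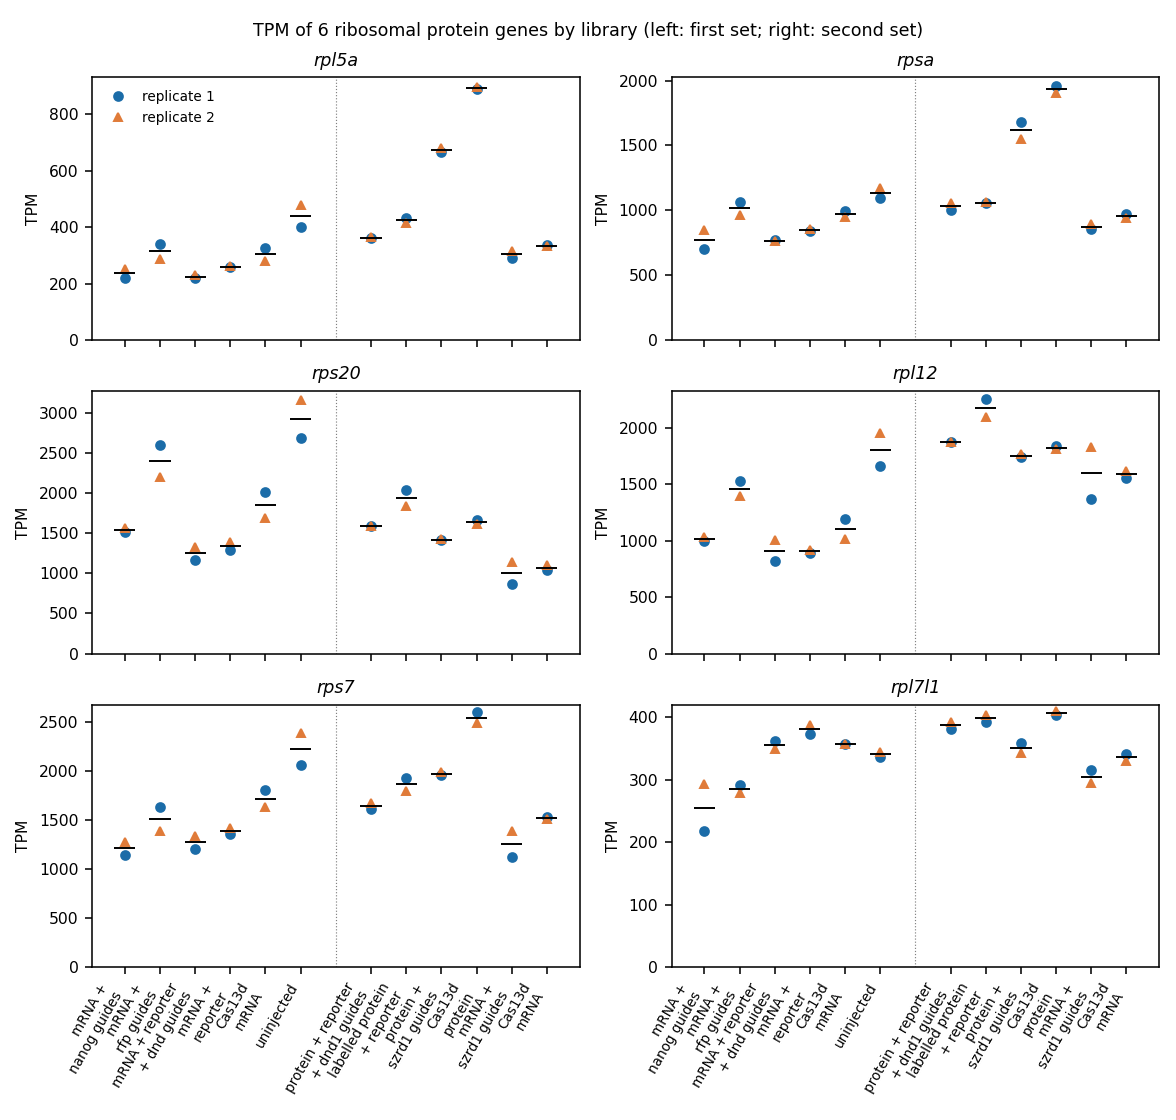
TPM of rpl5a, rpsa, rps20, rpl12, rps7 and rpl7l1 in each library, with circles and triangles for replicates 1 and 2 and a bar at the mean of each group (first set left, second set right of the dotted line). The Cas13d protein libraries lead for rpl5a (888 and 896 TPM) and rpsa (1961 and 1903 TPM), whereas rps20 is highest in uninjected embryos (2685 and 3154 TPM) and rpl7l1 stays between 217 and 411 TPM throughout.

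Guides against szrd1 were given with either form of Cas13d. With Cas13d mRNA most ribosomal protein genes overlapped between the groups. Of 83, 17 had both guide libraries below both controls, against 15.9% of all genes, and 0 had both above, against 26.4%. The median was -0.11, against 0.054 over all genes. The stalk protein rplp0, which anchors the P1 and P2 pairs, had 709 and 843 TPM with guides, against 787 and 867 TPM, so the groups overlapped. The test called 0 members, against 4.82% of all genes. An unadjusted p under 0.05 was reached by 9 of the 83 members and by 3011 of all 14716 genes. The guide replicates differed by a median of 0.30 on the log2 scale over the members, the most of any group. With libraries left out 1 at a time, the median log2 fold change of the members lay between -0.26 and 0.048. The oocyte list summed to 1059 and 1050 TPM with guides, against 625 and 606 TPM, with 5 of 15 genes called higher, against 3.12% of all genes. Within these sums nanog held 434 and 395 TPM, against 154 and 153 TPM. The later genes summed to 117 and 146 TPM with guides, against 266 and 253 TPM. The part of these lists in the result was not tested.

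With Cas13d protein and szrd1 guides, ribosomal protein genes were lower than with protein alone. Both guide libraries lay below both controls for 70 of 83 members, against 27.24% of all genes, and above for 0, against 31%. The test called 13 lower and 0 higher, where 12.3% of all genes were called and 3.75% called lower, with a median of -0.20, against 0.012 over all genes. They were rpl5a, rps7, rps16, rps2, rps4x, rpl8, rpl6, rpl7a, rpsa, rpl19, rpl36, rps24 and rpl7l1. The largest change was that of rpl5a, with 667 and 681 TPM, against 888 and 896 TPM (-0.40, SE 0.055, adjusted p 0.00169). Next was rps7, with 1962 and 1984 TPM, against 2602 and 2484 TPM (-0.37, SE 0.088, adjusted p 0.0259). The tRNA-contacting protein gene rps16 had 923 and 1015 TPM, against 1268 and 1209 TPM (-0.36, SE 0.087, adjusted p 0.027). None of the 3 overlapped between groups.

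The groups of this comparison also differed in the stage lists: the oocyte list summed to 291 and 307 TPM with guides, against 116 and 104 TPM, and the later genes to 598 and 627 TPM, against 978 and 1004 TPM. Their part in the result was not tested. With libraries left out 1 at a time, the median log2 fold change of the members lay between -0.23 and -0.19. The 13 calls did not hold in every such fit. The count of 13 was 2 when only the 4 libraries compared were fitted, and the share of all genes called there is not given. An interaction term compared the effect of szrd1 guides between the 2 forms of Cas13d, and limma called 0 members, against 1.73% of all genes. The median difference was -0.091. An unadjusted p under 0.05 was reached by 2 of the 83 members and by 2638 of all 14716 genes. A difference between the forms was thus not shown by the 13 genes called with protein and 0 with mRNA.

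With dnd1 guides and protein, 56 of 83 members had both libraries below both of the labelled control, against 17.7% of all genes, and 1, the barely detected rps8b, had both above, against 36.4%. The median was -0.10, against 0.059 over all genes. The gene rpl5a had 362 and 363 TPM with guides, against 433 and 415 TPM (-0.22, adjusted p 0.096), without overlap. For rps20 the values were 1588 and 1592 TPM, against 2037 and 1839 TPM (-0.28, adjusted p 0.32). The test called 0 members, against 1.3% of all genes. An unadjusted p under 0.05 was reached by 3 of the 83 members and by 1840 of all 14716 genes. The oocyte list summed to 704 and 664 TPM with guides, against 383 and 417 TPM, with 6 of 15 genes called higher, against 1.12% of all genes. Within these sums nanog held 207 and 183 TPM, against 52.8 and 58.1 TPM. The later genes summed to 223 and 250 TPM with guides, against 322 and 319 TPM. The part of these lists in the result was not tested. The interaction with the dnd guides of the first set, from 1 fit of all 24 libraries, called 0 members, against 0.0197% of all genes. At an unadjusted p under 0.05 there were 0 members, against 472 of all 15256 genes. The protein groups also differed in nanos3 (121 and 160 TPM with guides, against 21.3 and 20.7 TPM). For RFP the values were 18.5 and 27.12 TPM, against 0 and 0.11 TPM. An effect of the guides cannot be told apart from these differences, here or in the interaction.

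By role, the genes followed the common course to different degrees. Among small-subunit genes, rps6, the protein phosphorylated by S6 kinase, had group means of 814 TPM (Cas13d mRNA with szrd1 guides) to 1620 TPM (Cas13d protein). Its log2 fold change between protein and mRNA was 0.89 (adjusted p 2.4e-05). The entry-channel gene rps3 had 291 and 289 TPM with protein, against 159 and 156 TPM with mRNA (0.88, adjusted p 5.6e-05). The ubiquitin fusion gene rps27a had 1599 and 1558 TPM, against 889 and 916 TPM (0.81, adjusted p 3.5e-05). These 3 rose by more than the median of the 83.

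Smaller changes were seen for rps19, whose human counterpart is mutated in Diamond-Blackfan anaemia, with 1583 and 1625 TPM with protein, against 1171 and 1136 TPM with mRNA (0.48, adjusted p 0.0023). For rps14, whose human counterpart is lost in the 5q- syndrome, the values were 1954 and 1843 TPM, against 1329 and 1418 TPM (0.47, adjusted p 0.0031). Both were called, at under the median change.

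Among large-subunit genes, rpl3 at the peptidyl transferase centre had 1155 and 1240 TPM with protein, against 798 and 806 TPM with mRNA (0.58, adjusted p 9.6e-04). The late-joining protein gene rpl10 had 1142 and 1181 TPM, against 779 and 824 TPM (0.54, adjusted p 8.1e-04). For rpl38, which in mouse is needed for translation of a subset of Hox mRNAs, the values were 1050 and 920 TPM, against 656 and 703 TPM (0.53, adjusted p 0.0067). The exit-tunnel genes rpl23a (0.61, adjusted p 1.4e-04) and rpl39 (0.67, adjusted p 0.0034) and the 60S gene rpl7 (0.94, adjusted p 5.9e-06) were also higher. The last of these rose well beyond the median, and rpl7 had 1529 and 1537 TPM with protein, against 830 and 773 TPM with mRNA.

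In the P-stalk, which recruits the translation factors that hydrolyse GTP, all 4 genes rose with protein, while rpl12 at the base of the stalk was not called. Of these, rplp0 had 1616 and 1562 TPM, against 787 and 867 TPM (0.94, adjusted p 1.7e-05). For rplp1 the values were 2117 and 1973 TPM, against 1000 and 1044 TPM (1.0 after rounding, just under the fold minimum of 1, adjusted p 1.6e-05). Those of rplp2l were 2074 and 1830 TPM, against 1086 and 1237 TPM (0.75, adjusted p 5.4e-04). The fourth, rplp2, had 435 and 345 TPM, against 212 and 235 TPM (0.79, adjusted p 0.0013), with the protein replicates further apart than the mRNA replicates. The neighbouring rpl12, where the stalk meets the subunit, had 1841 and 1809 TPM, against 1555 and 1619 TPM, above without overlap.

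Ratios between 2 genes of the same library do not depend on the scaling of TPM, and were taken for sister genes. The ratio of rpl5a to rpl5b averaged 0.600 ± 0.029 with Cas13d protein and 0.552 ± 0.014 with protein and szrd1 guides, against 0.371 ± 0.00074 with Cas13d mRNA of the same set (SD, n = 2). In the other 9 groups it was between 0.292 and 0.400, and every library of these was below all 4 libraries of the 2 protein groups named first. The ratio of rpl22l1 to rpl22, sister genes of which the first is repressed by the protein of the second in mouse, was 0.178 ± 0.015 with Cas13d protein and 0.217 ± 0.0055 with Cas13d mRNA. In the first set it ran from 0.261 with Cas13d mRNA to 0.309 with dnd guides and reporter, above every library of the second set. No test was run on the ratios.

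The rps26 and rps27 pairs varied less. Over the 24 libraries rps26l stood at 0.270 to 0.403 times rps26, and rps27.1 at 0.729 to 0.948 times rps27.2, with the highest ratios of both pairs with Cas13d protein. The ratio of rpl7l1 to rpl7 was lowest with Cas13d protein (0.266 ± 0.0023) and highest with dnd guides and reporter (0.465 ± 0.034). The ratio of rplp2 to rplp2l split the sets, with group means of 0.298 to 0.375 in the first and 0.193 to 0.245 in the second. So did that of the stalk base to the stalk, rpl12 to rplp0, at 0.767 to 1.04 in the first set and 1.15 to 2.05 in the second.

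**Figure D5:**
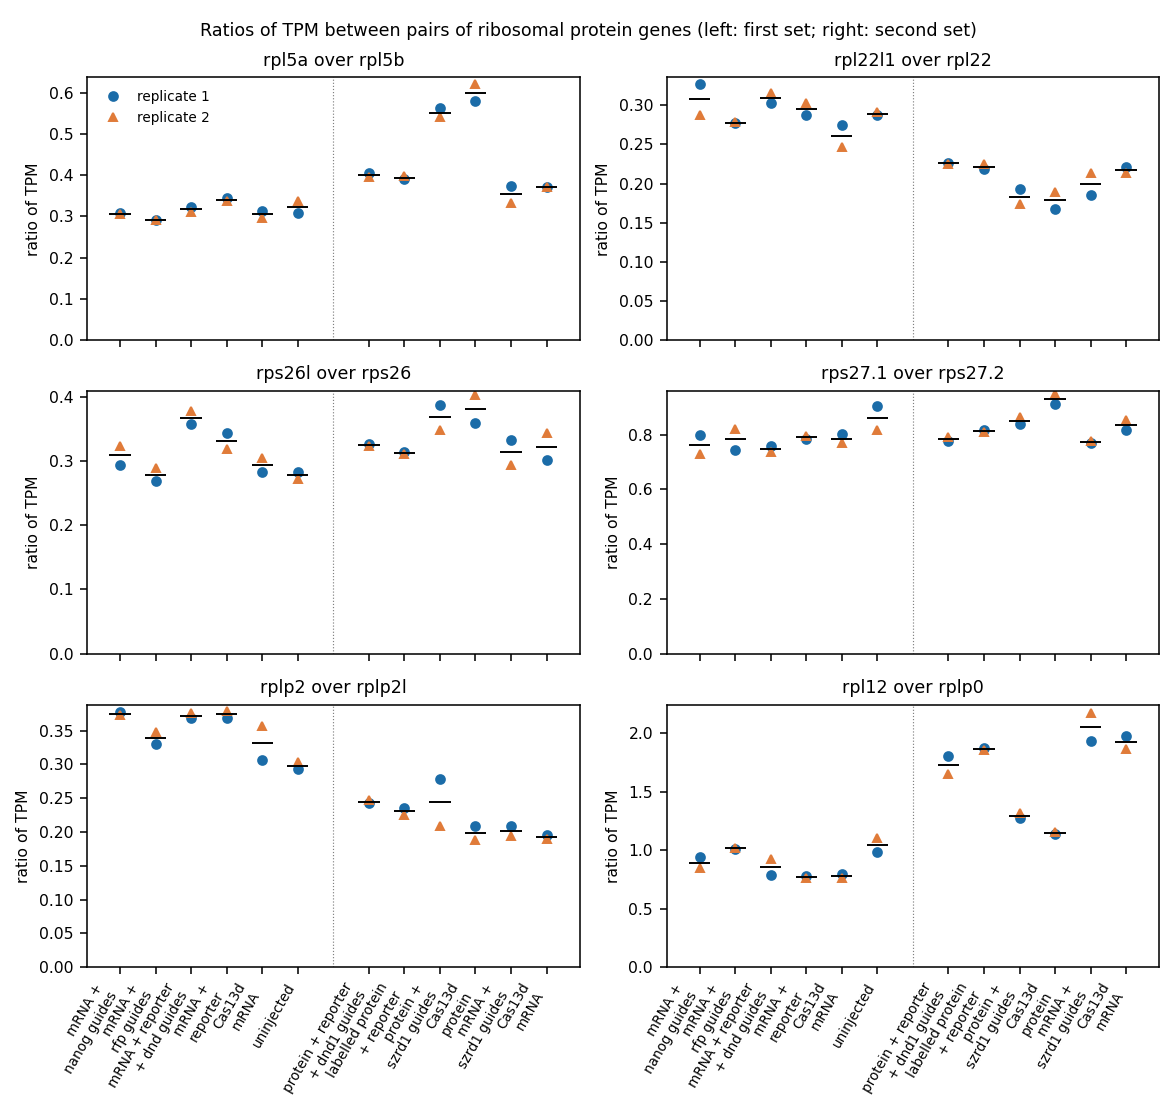
Ratio of TPM between 2 ribosomal protein genes within each library for 6 pairs, with circles and triangles for replicates 1 and 2 and a bar at the mean of each group (first set left, second set right of the dotted line). The ratio of rpl5a to rpl5b is highest with Cas13d protein (0.600) and with protein and szrd1 guides (0.552), and the ratios of rplp2 to rplp2l and of rpl12 to rplp0 lie apart between the sets.

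Among genes above 20 TPM, the SD of log2(TPM + 1) over the 12 group means was highest for rpl5a (0.59), rps20 (0.45) and rpl12 (0.44), which peaked in different groups. The highest group mean of these genes was 1.55 to 3.96 times the lowest, with a median of 2.02. It was 3.96 times for rpl5a (892 TPM with Cas13d protein, 225 TPM with dnd guides and reporter). For rps20 it was 2.93 times (2920 TPM in uninjected embryos, 998 TPM with Cas13d mRNA and szrd1 guides), and for rpl12 2.40 times (2174 TPM in the libraries labelled protein with reporter, 905 TPM with Cas13d mRNA and reporter). By this ratio 4 genes, rpl10a, rpsa, rplp2 and rpl34, stood between rps20 and rpl12. Among the 3 lowest SDs were those of rpl7l1 (255 to 407 TPM) and rpl13a (941 to 1587 TPM). The highest group mean was with Cas13d protein for 44 genes and in uninjected embryos for 34.

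Other genes of ribosome production and translation were set beside the ribosomal protein genes by lists chosen with earlier results known, and their counts stand beside the share of all genes called in the same direction. Of 56 ribosome biogenesis factors, 0 rose and 18 fell with nanog guides (median -0.51), against 3.49% of all genes called higher and 4.24% lower, among them nop2 (-1.08, adjusted p 0.0048), an rRNA methyltransferase, gnl3 (-0.87, adjusted p 0.012) and the RNA polymerase I subunit polr1a (-0.80, adjusted p 0.02). With rfp guides 0 rose and 9 fell (median -0.44), against 5.69% of all genes higher and 8.06% lower, including ncl, or nucleolin (-1.15, adjusted p 0.017). In that comparison the ribosomal protein genes had a median of 0.21 instead. With Cas13d protein against mRNA, 24 biogenesis factors rose and 4 fell (median 0.20), against 30.8% of all genes higher and 25.5% lower, with polr1a at 1.75 (adjusted p 4.4e-07). In the libraries labelled protein with reporter against Cas13d protein, 7 rose and 21 fell (median -0.086), against 22.7% of all genes higher and 27.9% lower. With szrd1 guides and protein, 0 rose and 5 fell (median -0.16), against 8.51% higher and 3.75% lower. In the other 5 comparisons 0 were called.

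Of 48 translation factors and related genes tested, 34 rose and 7 fell with Cas13d protein against mRNA (median 0.54), against the same 30.8% of all genes higher and 25.5% lower. The initiation factor gene eif3g was at 1.04 (adjusted p 5.5e-07), and the elongation factor gene eef2b at 0.78 (adjusted p 8.8e-06), while the cap-binding gene eif4eb fell by 0.89 (adjusted p 1.7e-04). This list also holds faua, a fusion gene that encodes a ubiquitin-like sequence joined to a ribosomal protein and that the naming rule does not take, at 0.95 (adjusted p 1.4e-04), and rack1, a protein of the small subunit, at 0.71 (adjusted p 2.4e-05). In the libraries labelled protein with reporter against Cas13d protein, 6 rose and 28 fell, against 22.7% of all genes higher and 27.9% lower. Fewer were called elsewhere. With nanog guides 2 fell, against 4.24% of all genes, with rfp guides 1 rose and 4 fell, against 5.69% and 8.06%, and with szrd1 guides and mRNA 1 rose, against 3.12%. These counts were near or below the shares of all genes. With szrd1 guides and protein 2 rose and 7 fell, against 8.51% and 3.75%.

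The 74 mitochondrial ribosomal protein genes, which serve the organelle's own ribosome, were far less abundant, at 0.240% to 0.327% of TPM for the whole list. With Cas13d protein against mRNA, 41 rose and 4 fell (median 0.34), against 30.8% of all genes higher and 25.5% lower, with mrpl10 at 1.38 (adjusted p 5.9e-04). In the libraries labelled protein with reporter against Cas13d protein, 3 rose and 44 fell (median -0.44), against 22.7% higher and 27.9% lower. Of the remaining comparisons, 2 fell with nanog guides (4.24% of all genes), 4 rose with rfp guides (5.69%), 1 rose with szrd1 guides and mRNA (3.12%), 4 fell with szrd1 guides and protein (3.75%), and 0 were called in the other 4.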

How the data were processed

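RNA was measured in 24 libraries of zebrafish embryos (12 groups of 2 replicates) by poly(A) selection, a stranded kit and 75 bp single reads, per the labels' protocols. The deposited table gives TPM per gene, made by the authors with STAR 2.6.1c, RSEM and the danRer11 build, per the submitters' processing notes. Which annotation and strand setting were used, and how reads shared by near-identical genes were divided, is not given in the sources used here. TPM keeps no depth, so no interval or detection floor is given. Nothing in the labels says that replicates came from separate clutches, so p-values measure the spread between these libraries only.

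Each set of 12 libraries was fitted apart with limma 3.58.1 (R 4.3.3; lmFit and eBayes with trend, 1 term per group, 6 residual degrees of freedom) on log2(TPM + 1) of all genes with a mean of at least 1 TPM, 15253 in the first set and 14716 in the second. Fold changes on this scale understate those of low genes. Tests were two-sided with Benjamini-Hochberg adjustment over all genes tested, and called means an adjusted p under 0.05. The 2 interactions used the second set and all 24 libraries. The procedure was tested on simulated data in which genes varied independently, so shifts shared by many genes between replicates were not covered. Shares of TPM and ratios between genes carry no test.

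The ribosomal protein genes, the other lists and the rules were chosen with earlier results of these data known. Named genes were all called members where 5 or fewer were called, otherwise the 3 largest rises and falls without overlap among members of at least 5 TPM, genes fixed by role, the 5 most and least abundant, and the 3 with the widest and the narrowest spread over groups. The gene rplp2l, the genes ranked just above the least abundant, the genes used to show values in comparisons without calls and the genes named from the other lists were chosen after their values were seen. Scaling, pseudocount, filter, fit, replicate block and left-out libraries were varied. Values of a few single genes are not reported here, although the counts, medians and shares include them.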

Additional observations from a re-analysis of the deposited data

How the results depend on the processing

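Counts of ribosomal protein genes called with Cas13d protein against mRNA (80) and in the libraries labelled protein with reporter against Cas13d protein (64) stayed within 1.5 times of these values, except with a fold minimum of 1 on the log2 scale (4 and 2) and, for the first, with the labelled libraries in place of protein (29). With all libraries kept, the counts for both sets of dnd guides, szrd1 guides with mRNA and the 2 interactions were 0 under every alternative. For nanog guides (1) the count was 0 with no filter, with only the groups compared, without the trend, with the replicate block and with the fold minimum, 2 at a mean of at least 5 TPM and 7 with all 24 libraries. For rfp guides (3) it was 0 with no filter, without the trend and with the fold minimum, and 1 with the replicate block. It was 5 at a mean of at least 5 TPM and 16 with all 24 libraries. After quantile normalization it was 26, where 32.2% of all genes were called, and 32 with genes over 10000 TPM left out, where 30.6% were. For the reporter (0) it was 2 with median-of-ratios scaling, where 6.65% of all genes were called, and 2 with genes over 10000 TPM left out, where 6.01% were. It was 3 after quantile normalization, where 5.86% of all genes were called, and 1 with all 24 libraries. For Cas13d mRNA against uninjected embryos (0) it was 3 with all 24. For szrd1 guides with protein (13) it was 7 with median-of-ratios scaling (13.1% of all genes called) and 5 after quantile normalization (12.9%). It was 3 with no filter, 2 with only the groups compared, 1 with all 24 libraries, 1 without the trend and 0 with the fold minimum. Where no share of all genes stands beside a count here, that share is not given. The cause was not tested.

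Leaving out each library in turn gave 0 to 14 for nanog guides, 0 to 2 for rfp guides, 0 to 19 for szrd1 guides with mRNA, 1 to 6 for szrd1 guides with protein, 73 to 79 for protein against mRNA, 52 to 60 for the labelled libraries against protein, 0 to 1 for the szrd1 interaction (1 without replicate 1 of szrd1 guides with mRNA) and 0 in the other 5 results. An arm left with 1 library is assumed to vary like the other groups. The share of all genes called in these fits is not given, so the counts cannot be set against it. The highest count for nanog guides came without replicate 2 of that group, leaving replicate 1, with 23.2% of TPM in repeat-like loci. For szrd1 guides with mRNA the highest came without replicate 2 of a group whose replicates differed by a median of 0.30 (log2). The median log2 fold change reversed for nanog guides with genes over 10000 TPM left out (0.048, where all genes had 0.13) and after quantile normalization (0.070), for dnd guides without replicate 1 of dnd guides (0.015, in a range of -0.14 to 0.015) and for szrd1 guides with mRNA without replicate 1 of szrd1 guides (0.048, in a range of -0.26 to 0.048). Other medians kept their sign, but some differences from the median of all genes shrank after quantile normalization. That difference went from 0.61 to 0.42 for protein against mRNA and from -0.51 to -0.26 for Cas13d mRNA against uninjected embryos. For szrd1 guides with protein it went from -0.21 to -0.079, while for rfp guides it stayed at 0.26. Of the values of named genes, 0 reversed, 115 kept their side of the threshold and 25 lost it, and with libraries left out 33 kept it and 23 lost it. Replicate numbers gave little sign of pairing: deviations of same-numbered libraries correlated at over 0.1 in 3 of 15 pairs of groups in the first set and 1 of 15 in the second. Such a check cannot exclude that some libraries shared a clutch or day. With the replicate as a block, the counts were 0 for nanog guides, 1 for rfp guides, 9 for szrd1 guides with protein, 80 for protein against mRNA and 63 for the labelled libraries. Group shares were also taken with mitochondrial genes, or genes over 10000 TPM, left out of the total. Of these values, 20 moved by at least the SD between replicates and 4 did not.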

Other observations

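The 2 groups of Cas13d mRNA alone, given in different fish and sets, held different levels of several ribosomal protein mRNAs. The stalk-base gene rpl12 averaged 1104 TPM in the first set and 1587 TPM in the second, and rps20 averaged 1850 TPM in the first and 1071 TPM in the second. The stalk genes rplp0 and rplp2 averaged 1413 and 414 TPM in the first set, and 827 and 223 TPM in the second. Fish, set and batch cannot be told apart here, so these are values only.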
